A study of Mus musculus with 4 samples.

Results

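The 10 TNF and NF-κB feedback genes were followed by RNA sequencing in dermal white adipose tissue (dWAT), the fat layer around the lower ends of the hair follicles. They were chosen by symbol, all 10 were found among the 22913 genes of each library, and they are the ligand Tnf, the receptors Tnfrsf1a and Tnfrsf1b, the NF-κB subunits Nfkb1 and Nfkb2, the inhibitors and feedback regulators Nfkbia, Nfkbie, Nfkbiz and Tnfaip3, and the secreted protein gene Tnfaip6. The study asked how dWAT of old and young C57BL/6 mice differs in telogen, the resting phase of the hair cycle, and in anagen, the growth phase, which was induced by depilation. The tissue was separated from the skin by microdissection and gave 1 library for each of 4 groups, namely OTD (old, telogen, 18 months), YTD (young, telogen, 2 months), OAD (old, anagen, 18 months) and YAD (young, anagen, 2 months). The age field of the sample labels gives 18 months for YTD and 2 months for OAD, whereas the titles call them young and old, and the titles were followed. The methods list many mice per group, and whether their tissue was pooled into the 1 library is not stated. No spread between animals is therefore known, no test can be made, and each difference below is one between single libraries.

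TNF is a cytokine that binds TNFR1, found on most cells, and TNFR2, found mainly on immune and endothelial cells. The receptors activate the IKK kinases, which mark IκB proteins for destruction and so free NF-κB dimers to enter the nucleus. NF-κB then switches on genes of its own inhibitors, such as Nfkbia and Tnfaip3, so that their transcripts are often read as a record of recent NF-κB activity, although other signals act on them too.

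The sequence just before the start of 3 of the inhibitor genes is shown because it holds matches to the κB consensus, the sequence that NF-κB dimers bind. The 130 bases before the start are given from RefSeq on GRCm38.p6, 5′ to 3′ on the strand of the gene, with the matches in capitals, for Nfkbia (chr12:55492648-55492777, minus strand), Nfkbie (chr17:45555570-45555699, plus strand) and Tnfaip3 (chr10:19015411-19015540, minus strand).
Nfkbia: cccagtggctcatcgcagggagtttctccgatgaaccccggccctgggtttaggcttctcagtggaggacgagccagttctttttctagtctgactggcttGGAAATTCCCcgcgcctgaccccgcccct
Nfkbie: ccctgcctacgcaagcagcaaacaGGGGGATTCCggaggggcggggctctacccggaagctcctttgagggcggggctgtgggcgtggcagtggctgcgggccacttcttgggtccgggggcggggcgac
Tnfaip3: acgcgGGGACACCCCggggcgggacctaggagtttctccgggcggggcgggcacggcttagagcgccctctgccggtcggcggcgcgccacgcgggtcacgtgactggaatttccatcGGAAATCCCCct
The match of Nfkbia began 29 bases before the start, that of Nfkbie 106 bases before it, and those of Tnfaip3 125 and 12 bases before the first of its 2 listed starts. The promoter of the other start of Tnfaip3 held no match.

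Nfkb2, the gene of the p100 and p52 subunit, held matches before the first of its 3 listed starts, and these short sites are shown for comparison with the inhibitors (chr19:46304688-46304717 and chr19:46304711-46304736, GRCm38.p6, plus strand).
Nfkb2, first site: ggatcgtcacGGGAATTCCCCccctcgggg
Nfkb2, second site: ctcggggggccgaaaGGGGCTTTCCc
They began 39 and 11 bases before that start, and the capitals of the first site cover overlapping matches on both strands. Matches not shown here began 236 bases before the second start and 225 bases before the third.

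RefSeq promoters, taken as 250 bases before to 50 bases after a start, were held for 8 of the 10 genes. Nfkb1 and Nfkbiz were not matched. The κB consensus, of 10 letters and searched on both strands, was found for 4 of the 8 (Nfkb2, Nfkbia, Nfkbie and Tnfaip3), and 8.46% of all 32851 promoters of the same length held it. The AP-1 motif TGANTCA was found for 4 of the 8 as well (Nfkb2, Nfkbie, Tnfaip3 and Tnfaip6), against 7.81% of all promoters. No promoter of the 8 held the CArG box of serum response factor, which 1.63% of all promoters held. A gene with several listed starts had more than 1 chance of a match, and a match is only a run of letters, not a shown binding site.

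Values are FPKM, in which a gene's fragments are divided by both the gene length and the sequencing depth. Levels of different genes can thus be compared within a library. Between libraries a level also depends on the make-up of the rest of the RNA, and several phase directions below turn with the scaling. The summed FPKM was 1249610, 1245970, 814616 and 693715 in OTD, YTD, OAD and YAD. A change is the difference of log2(FPKM + 1) between libraries, which understates the change of low genes, and a gene was called changed where the difference was at least 1 in size. Roughly 19200000 to 24300000 fragments per library were estimated from the lowest values, and the 95% intervals given for ratios are exact binomial intervals from these rough fragments that cover counting error only. All 10 genes stood above the floor of 3 fragments in each of the 4 libraries. The 12 adipocyte markers were all at 1 FPKM or more in at least 1 of the libraries compared, and their sum was 13238, 12263, 3664 and 2655 FPKM in OTD, YTD, OAD and YAD. The 12 skeletal muscle markers summed to 63966, 99075, 15107 and 11164 FPKM in the same order, and 13 hair shaft and matrix markers to 221, 404, 21906 and 18558 FPKM. The share of the summed FPKM held by 13 mitochondrially encoded genes was 52.7%, 44.7%, 18.3% and 14.4% in that order. In bulk tissue of this kind, fewer cells of a type and less RNA per cell cannot be told apart, which holds for each result below.

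The order of the levels was led by the same 3 genes in each library, with Tnfrsf1a above Nfkbia and Nfkbia above Nfkb1, and Tnf was last of the 10 in each. In between, Tnfaip6 was sixth in OTD and eighth in the other libraries. In YTD the neighbours Nfkbie, Nfkbiz, Tnfaip6 and Tnfaip3 lay close together, between 1.83 and 1.64 FPKM.

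**Figure D1:**
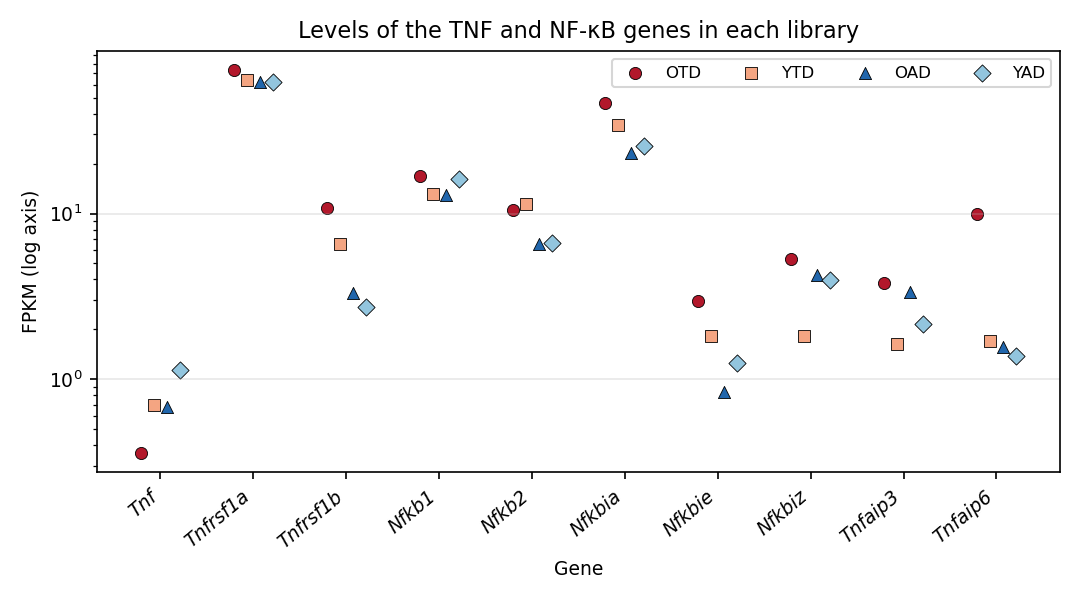
FPKM on a log axis (y) of each of the 10 genes (x) in the 4 libraries, 1 point per library and no error bars because there are no replicates. Tnfrsf1a lies between 61.9 and 73.5 FPKM in all 4 libraries, while Tnfaip6 stands at 9.96 FPKM in OTD and at 1.71 or less in the others.

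In telogen, 8 of the 10 genes were higher in OTD than in YTD and 2 were lower, with a median change of 0.46. Tnfaip6 and Nfkbiz rose past the threshold, and no member fell past it. These are 2 of 10, where 1.67% of 17230 genes rose by as much in OTD, 1.93% fell and 3.6% did either. Scaled without the mitochondrially encoded genes, the shares over all genes were 3.81% higher and 1.57% lower. The median over all genes at 1 FPKM or more was -0.06 as deposited and 0.13 after that scaling.

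In anagen, 4 of the 10 genes were higher in OAD than in YAD and 6 were lower, with a median change of -0.01. No member passed the threshold, which 1.18% of 17613 genes did in either direction, with 0.727% higher and 0.454% lower in OAD, or 0.749% and 1.04% when scaled without the mitochondrially encoded genes. The median over all genes at 1 FPKM or more was -0.00, and rescaled to TPM 2 members were higher and 8 lower. The anagen changes of the members ran from -0.35 for Tnf to 0.47 for Tnfaip3.

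**Figure D2:**
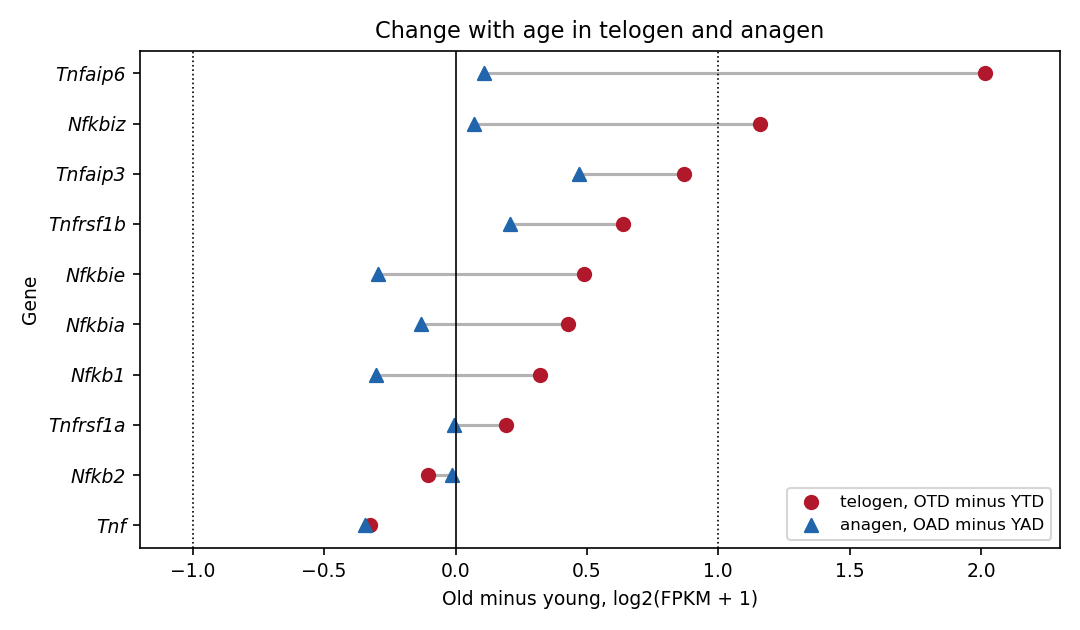
Old minus young difference of log2(FPKM + 1) (x) of each of the 10 genes (y), as circles for telogen and triangles for anagen, joined by a line for each gene, with dotted lines at the threshold of 1 in either direction. Tnfaip6 and Nfkbiz lie to the right of the threshold in telogen, at 2.01 and 1.16, and no triangle reaches it.

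Tnf, the ligand itself, was the lowest of the genes (ENSMUSG00000024401, chr17:35199381-35202007, minus strand). It stood at 0.358, 0.702, 0.682 and 1.14 FPKM in OTD, YTD, OAD and YAD, worth roughly 5.23, 9.54, 11.7 and 18.2 fragments. The old library was the lower one in both phases. The log2 ratio of the telogen libraries was -0.97 with an interval of -2.87 to 0.71, and that of the anagen libraries was -0.74 with an interval of -1.92 to 0.40. Both intervals hold 0, so a difference in Tnf with age was not detectable at this depth.

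Tnfrsf1a, which encodes TNFR1, had the highest level of the genes and, as deposited, the narrowest range (ENSMUSG00000030341, chr6:125349451-125362484, plus strand). It stood at 73.5, 64.3, 61.9 and 62.2 FPKM in OTD, YTD, OAD and YAD. As deposited, OTD was the highest and the other libraries lay together. Rescaled to TPM, the range was no longer the narrowest and the young phase change was 0.79, and its direction turned under 3 of 6 settings. The telogen log2 ratio was 0.19 with an interval of 0.10 to 0.29, and the anagen log2 ratio was -0.01 with an interval of -0.10 to 0.08.

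Tnfrsf1b, which encodes TNFR2, was higher in both telogen libraries than in both anagen libraries (ENSMUSG00000028599, chr4:145213463-145246870, minus strand). It stood at 10.7, 6.53, 3.30 and 2.72 FPKM in OTD, YTD, OAD and YAD. The telogen log2 ratio was 0.72 with an interval of 0.45 to 0.99, a 1.64-fold higher level in OTD, and the anagen log2 ratio was 0.28 with an interval of -0.14 to 0.70. TNFR1 transcript therefore exceeded TNFR2 transcript by factors of 6.85, 9.84, 18.7 and 22.8 in OTD, YTD, OAD and YAD. Such a ratio within a library does not depend on the scaling between libraries, and it was lower in telogen than in anagen at both ages.

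Nfkb1, the gene of the p105 precursor of p50, had levels that crossed over between the phases (ENSMUSG00000028163, chr3:135584655-135691546, minus strand). It stood at 16.7, 13.2, 12.9 and 16.2 FPKM in OTD, YTD, OAD and YAD. As deposited, OTD and YAD were the high libraries, while rescaled to TPM OAD lay above OTD, with a change of 0.23 between them. The telogen log2 ratio was 0.34 with an interval of 0.21 to 0.48, and the anagen log2 ratio was -0.32 with an interval of -0.45 to -0.20.

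Nfkb2, of the non-canonical arm of the pathway, differed, as deposited, between the phases more than between the ages, although its direction between the phases in young mice turned under 1 of 6 settings (ENSMUSG00000025225, chr19:46304737-46312090, plus strand). It stood at 10.5, 11.4, 6.56 and 6.64 FPKM in OTD, YTD, OAD and YAD. The telogen log2 ratio was -0.12 with an interval of -0.28 to 0.05, and the direction of its telogen change turned under 2 of 6 alternative settings, which reached 0.10. Nfkb1 exceeded Nfkb2 by factors of 1.59, 1.16, 1.97 and 2.44 in OTD, YTD, OAD and YAD.

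The inhibitors and feedback regulators were all 4 higher in OTD than in YTD, with a median change of 0.68, of which 1 passed the threshold. In anagen 2 were higher and 2 lower in the old library, with a median change of -0.03.

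Nfkbia encodes IκBα, the inhibitor that holds NF-κB in the cytoplasm and is resynthesised after each activation (ENSMUSG00000021025, chr12:55489411-55492647, minus strand). It stood at 46.4, 34.2, 23.2 and 25.6 FPKM in OTD, YTD, OAD and YAD. As deposited, both telogen libraries lay above both anagen libraries, an order that turned in young mice under 1 of 6 settings. The telogen log2 ratio was 0.44 with an interval of 0.29 to 0.59, and the anagen log2 ratio was -0.14 with an interval of -0.31 to 0.04. Its ratio to Nfkb1 was 2.77 and 2.59 in the old and young telogen libraries, and 1.80 and 1.58 in the anagen libraries.

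Nfkbie encodes IκBε, an inhibitor that acts later than IκBα (ENSMUSG00000023947, chr17:45555716-45563169, plus strand). It stood at 2.97, 1.83, 0.838 and 1.26 FPKM in OTD, YTD, OAD and YAD. The old library was the highest in telogen and the lowest in anagen. The telogen log2 ratio was 0.70 with an interval of 0.11 to 1.31, and the anagen log2 ratio was -0.59 with an interval of -1.44 to 0.25.

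Nfkbiz encodes IκBζ, a nuclear member of the IκB family that is induced by interleukin 1 and Toll-like receptors and helps NF-κB at a set of secondary genes, among them Il6 (ENSMUSG00000035356, chr16:55811375-55838899, minus strand). It stood at 5.29, 1.82, 4.25 and 4.0 FPKM in OTD, YTD, OAD and YAD. YTD stood apart as the low library, and the others lay together. Nfkbiz rose 2.91-fold in telogen, a log2 ratio of 1.54 with an interval of 1.16 to 1.93, and was called in all 6 alternative settings. The anagen log2 ratio was 0.09 with an interval of -0.19 to 0.37, and the sign of the anagen change turned under 3 of 6 settings. Nfkbia exceeded Nfkbiz 8.77-fold in OTD and 18.8-fold in YTD, so the inhibitors did not differ by the same factor, and the ratio was 5.46 in OAD and 6.39 in YAD.

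Tnfaip3 encodes A20, a ubiquitin-editing enzyme that shuts off signalling from the TNF receptor (ENSMUSG00000019850, chr10:19000910-19015657, minus strand). It stood at 3.83, 1.64, 3.36 and 2.15 FPKM in OTD, YTD, OAD and YAD. As deposited, both old libraries lay above both young libraries, while rescaled to TPM YAD lay just above OTD, at 3.11 against 3.07 TPM. The level was 2.33-fold higher in OTD than in YTD, a log2 ratio of 1.22 with an interval of 0.82 to 1.63. It was 1.56-fold higher in OAD than in YAD, a log2 ratio of 0.64 with an interval of 0.30 to 0.99. Its telogen change of 0.87 on the log2(FPKM + 1) scale missed the threshold and passed it under 3 of 6 alternative settings. The ratio of Tnfaip3 to Nfkb1 was 0.229 in OTD and 0.260 in OAD, against 0.125 in YTD and 0.133 in YAD.

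**Figure D3:**
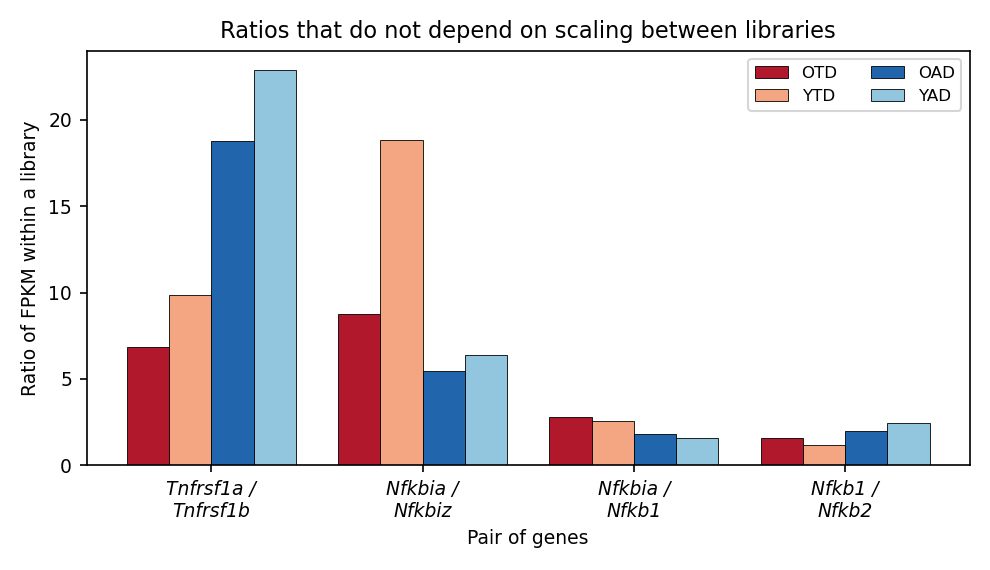
Ratio of the FPKM of 2 genes within a library (y) for 4 pairs of genes (x), 1 bar per library from 0, without error bars because there are no replicates. The ratio of Tnfrsf1a to Tnfrsf1b runs from 6.85 in OTD to 22.8 in YAD, and that of Nfkbia to Nfkbiz is highest in YTD, at 18.8.

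Tnfaip6 encodes TSG-6, a secreted hyaluronan-binding protein that TNF and interleukin 1 induce and that is known to dampen inflammation (ENSMUSG00000053475, chr2:52038009-52056686, plus strand). It stood at 9.96, 1.71, 1.57 and 1.38 FPKM in OTD, YTD, OAD and YAD, worth roughly 170.3, 27.2, 31.5 and 25.9 fragments. OTD was high and the other libraries lay together. Tnfaip6 rose 5.82-fold in telogen, a log2 ratio of 2.54 with an interval of 1.95 to 3.18, and its change was the 26th highest in the whole table. In anagen the log2 ratio was 0.18 with an interval of -0.61 to 0.98, so a difference was not detectable at this depth.

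Between the phases, many genes of the tissue differed, and the members are read against that. Anagen was induced by depilation at both ages, so phase and depilation cannot be told apart. In young mice, Tnfrsf1b fell past the threshold from YTD to YAD and no member rose past it, where 32.7% of 17622 genes passed it, 16.7% downwards and 16.1% upwards, or 15.5% and 21.6% when scaled without the mitochondrially encoded genes. The change of Tnfrsf1b was -1.02, at the threshold, and it was called under 3 of 6 alternative settings, while the member with the largest increase was Nfkbiz, at 0.83. Nfkbiz rose past the threshold under 4 of 6 settings, up to 1.46, and Nfkb1 under 1, at 1.07, so the calls in young mice depend on the setting. In old mice, Tnfaip6 (-2.09), Tnfrsf1b (-1.45) and Nfkbie (-1.11) fell past the threshold from OTD to OAD, where 31.7% of 17712 genes passed it, 15.6% downwards and 16.1% upwards, or 20.3% and 15.6% when scaled without the mitochondrially encoded genes. Tnfaip6 was called under all 6 alternative settings and the others under 5. Nfkbia lay just short of the threshold at -0.97, passed it under 3 of 6 settings, and stood at -0.37 when rescaled to TPM. The medians of the members were -0.12 in young mice, with 4 genes higher and 6 lower in anagen, and -0.48 in old mice, with 1 higher and 9 lower. Over all genes at 1 FPKM or more they were 0.03 and 0.05. When the values were rescaled to TPM, which moves the median of all these genes to 0.76 in young and 0.58 in old mice, the medians of the members were 0.58 and 0.086, so their direction between the phases depends on the scaling. The telogen and phase comparisons share libraries, and OTD enters both comparisons in which Tnfaip6 passed the threshold.

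The other genes of the pathway were read from 44 genes, from related ligands to deubiquitinases. In telogen 23 were higher and 21 lower in OTD, with a median change of 0.06, and none passed the threshold. The changes ran from -0.97 to 0.75. In anagen 30 of the 43 genes above 0 were higher and 13 lower in OAD, with a median of 0.07, and none passed the threshold. Rescaled to TPM, 12 were higher and 31 lower and the median was -0.14, so this direction depends on the scaling.

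By group, the 4 genes of related ligands and shedding all had larger values in OTD than in YTD, and their median change was 0.30. Among them, Lta lay under the floor in both libraries. The intervals of the telogen log2 ratio of Ltb, -0.12 to 2.54, and of Adam17, -0.05 to 0.36, hold 0. That of Timp3 was 0.64 to 0.86. The 16 genes of the receptor complex and its ubiquitin ligases had a median of -0.19, with 7 higher and 9 lower. The 4 genes Chuk, Ikbkb, Ikbkg and Map3k14 had a median of -0.14. Map3k14, a kinase upstream of the IKK complex, was the 1 higher, at 0.08, and the 3 genes of the IKK complex were lower. The intervals of the telogen log2 ratio of Map3k14, -0.19 to 0.40, Chuk, -0.39 to 0.09, and Ikbkg, -0.43 to 0.12, hold 0. That of Ikbkb was -0.44 to -0.06. Scaling without the mitochondrially encoded genes adds 0.22 to each telogen log2 ratio, more than the size of those of Chuk, -0.15, and Ikbkg, -0.16. The 3 other IκB genes had a median of 0.36, with 2 higher and 1 lower in OTD. The median is the change of Nfkbid, whose interval of the telogen log2 ratio, -0.33 to 2.35, holds 0. That of Bcl3 was 0.39 to 0.96. Nfkbib, the most abundant of the 3, was the 1 lower, with an interval of -0.47 to -0.15. The 3 genes summed to 38.2 FPKM in OTD and 40.7 in YTD, so the group had no common direction. Timp3, an inhibitor of the protease that sheds TNF from the cell surface, stood at 144.3, 85.6, 56.7 and 50.6 FPKM in OTD, YTD, OAD and YAD. Rnf11, a partner of A20, stood at 73.2, 98.3, 41.9 and 32.8 FPKM in the same order, lower in OTD than in YTD and higher in OAD than in YAD. Between the phases, as deposited, 8 of the 43 genes above 0 passed the threshold in young mice and 7 of 44 in old mice, 1 upwards in each case. These shares lie below those of all genes given above, 32.7% in young and 31.7% in old mice. Rescaled to TPM, 8 rose and 1 fell past the threshold in young mice, and 12 rose and 1 fell in old mice. The direction of the calls between the phases thus depends on the scaling.

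**Figure D4:**
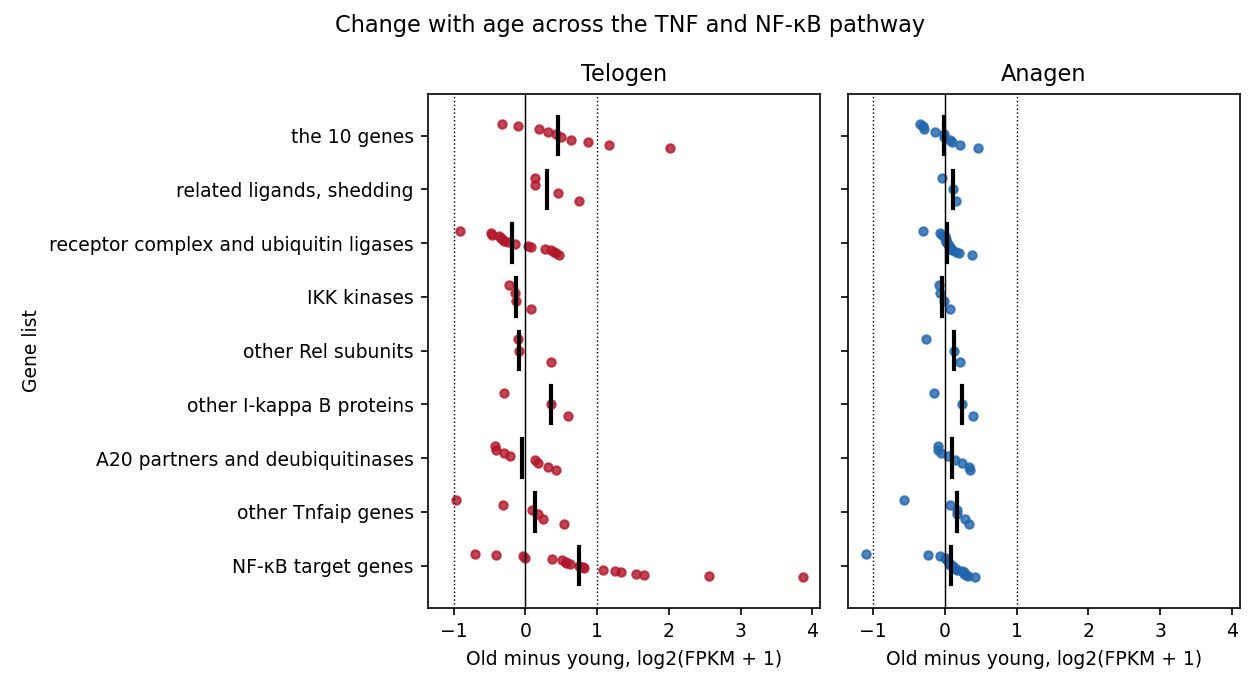
Old minus young difference of log2(FPKM + 1) (x) for the 10 genes, 7 groups of other pathway genes and 20 NF-κB target genes (y), in telogen on the left and anagen on the right, with 1 point per gene above 0 in either library and a black bar at the median of each list. The medians of the 10 genes are 0.46 in telogen and -0.01 in anagen, those of the target genes are 0.75 and 0.09, and no pathway gene reaches a dotted line, which marks the threshold of 1.

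Known target genes of NF-κB were mostly higher in OTD than in YTD. Of 20 such genes, 19 were above 0, of which 15 were higher and 4 lower in OTD, with a median change of 0.75. 7 rose past the threshold and none fell, against the share of 1.67% given above. The list was chosen with results of these libraries known, and the study shows some of its genes for their change, so it is not independent evidence of the direction. In anagen 17 of 20 were higher and 3 lower in OAD, with a median of 0.09, and 1 fell past the threshold, against 0.454% of all genes. Rescaled to TPM, 10 were higher and 10 lower, so the anagen tally depends on the scaling. It also counts Cxcl1, Il6 and Ccl20 as higher and Cxcl2 as lower, which lay under the floor in both anagen libraries. Of the 12 target genes at 1 FPKM or more in OAD or YAD, 11 were higher and 1 lower as deposited. Among the 11, the intervals of the anagen log2 ratio of Icam1, Ccl5, Csf1, Sod2, Ier3, Gadd45b and Irf1 hold 0. Those of Vcam1, Sele, Zfp36 and Bcl2l1 do not. The anagen changes of Icam1 and Sod2 turned in sign under 3 of 6 settings, so this tally depends on the scaling too.

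The genes that rose encode adhesion molecules, chemokines, cytokines and an RNA-binding regulator. Icam1, an adhesion molecule for leukocytes, stood at 23.3, 10.5, 6.26 and 6.01 FPKM in OTD, YTD, OAD and YAD, and Sele, the E-selectin of activated endothelium, at 13.7, 4.07, 1.29 and 0.837 FPKM. The chemokine genes Cxcl1 and Ccl2 stood at 15.1 and 15.6 FPKM in OTD, and Cxcl1 was at least 28.2-fold higher there, since its 0.109 FPKM in YTD lay under the floor. Il6 was likewise at least 25.2-fold higher in OTD, and Il1b was 4.56-fold higher, with 3.37 FPKM in OTD and 0.739 in YTD. Zfp36, whose protein promotes the decay of cytokine mRNAs, stood at 98.2, 30.5, 48.6 and 40.4 FPKM in OTD, YTD, OAD and YAD. Sod2, a mitochondrial antioxidant enzyme and a target gene, did not follow them, with 56.7 FPKM in OTD and 92.6 in YTD, a change of -0.70. The chemokine gene Ccl5 was also lower, with 5.71 FPKM in OTD and 7.88 in YTD, as were Csf1 and Bcl2l1, with changes of -0.03 and -0.004. The intervals of the telogen log2 ratio of Ccl5, Csf1 and Bcl2l1 hold 0. Cd83, a marker of mature dendritic cells, stood at 3.02, 1.38, 0.069 and 1.30 FPKM in OTD, YTD, OAD and YAD, and was at least 6.20-fold lower in OAD than in YAD, with OAD under the floor.

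Markers of other cells and the immediate early genes also differed between the telogen libraries. In telogen 11 of 12 macrophage markers were higher in OTD, with a sum of 829.6 FPKM against 508 in YTD, and all 10 endothelial markers were higher, with a sum of 621 against 395. 8 of 10 fibroblast markers were higher, with sums of 1617 and 1163 FPKM. Of the immediate early genes, which respond within minutes to stimuli that include dissection, all 19 measured were higher in OTD and 16 passed the threshold, with sums of 1070 and 322 FPKM. Skeletal muscle markers were all 12 lower in OTD, as were all 13 hair shaft and matrix markers and 9 of 11 epidermis markers. The part of all these markers in the telogen changes of Tnfaip6, Nfkbiz and the other members was not tested.

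In anagen, 0 of 12 macrophage markers were higher in OAD, with sums of 107 and 137 FPKM in OAD and YAD, and the immediate early genes were higher for 14 of 19, with sums of 728 and 589 FPKM. All 10 endothelial markers were higher in OAD, with sums of 157 and 118, and all 10 fibroblast markers were lower, with sums of 229 and 444. 10 of 10 melanocyte markers were lower in OAD, with sums of 479.6 and 780.4, and had summed to 25.8 and 24.5 in OTD and YTD. The 11 epidermis markers measured summed to 77.6, 127, 2903 and 2198 FPKM in OTD, YTD, OAD and YAD. The neutrophil list summed to 138.7, 118.7, 142 and 59.4 FPKM, with 4 of its 10 genes at 0 in each telogen library. The 8 T cell markers measured summed to 2.18, 1.49, 1.21 and 1.61 FPKM. Their part in the anagen and phase changes of the 10 genes was not tested either.

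Among 14203 genes, those with the most similar pattern over the 4 libraries were sought for the 4 members whose range was at least 1, by the smallest Euclidean distance between mean-centred log2(FPKM + 1) values. With only 4 libraries, many genes can lie close. The pseudocount of 1 also shrinks the changes of low genes, so a small distance need not mean a like fold. Nearest to Tnfrsf1b were P2ry12, Vegfc and Pde8a, at 0.02, 0.05 and 0.06. P2ry12 was low, at 2.37, 1.19, 0.247 and 0.082 FPKM in OTD, YTD, OAD and YAD, against 10.7, 6.53, 3.30 and 2.72 for Tnfrsf1b. Nearest to Nfkbie were Plpp3, Ddah2 and Iqgap2, at 0.05, 0.06 and 0.07. Nearest to Nfkbiz were Scpep1, Nedd9 and Litaf, at 0.14, 0.15 and 0.15. Nearest to Tnfaip6 were Defb8, Has1 and H2-M9, at 0.18, 0.23 and 0.27, where Defb8 was listed at 0 in all libraries but OTD. Has1 encodes a hyaluronan synthase, and stood at 3.16, 0.168, 0.180 and 0.112 FPKM in OTD, YTD, OAD and YAD.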

How the data were processed

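Total RNA of dWAT was sequenced in 4 libraries, 1 per group. The authors deposited FPKM per gene, and the submitters' processing notes name bcl2fastq, TopHat2 and the build GRCm38. The counting tool and the annotation were not given in the sources used here. Of 22913 genes, 22166 carry Ensembl identifiers and 21750 were matched to a symbol. 97.0% of the listed lengths are multiples of 3, so they are treated as coding length.

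FPKM were used as deposited, with a pseudocount of 1 and a threshold of 1 on the log2 scale. Depth was estimated roughly from features of 2000 to 4000 bases, whose lowest values gather at 1 fragment. Genes above 0 in either library entered a list. The members and lists were chosen with earlier results of these data known. Named were all 10 members, pathway and target genes past the threshold in an age comparison, the 2 of highest mean FPKM in each list, and the 3 genes nearest to each member with a range of at least 1. Coordinates of genes are those of the deposited files.

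Alternatives were a pseudocount of 0.1, a filter of 1 FPKM, a fold of 1.5, and rescaling by the median of ratios, to TPM, without mitochondrial genes, and without mitochondrial, muscle, hair and pigment genes. The steps were tested on simulated data. Python 3.11.15, numpy 2.4.6, pandas 2.3.3, scipy 1.17.1 and matplotlib 3.10.9 were used.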

Additional observations from a re-analysis of the deposited data

Results flagged for a closer look

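For 8 of the named genes the change with age went in opposite directions in telogen and in anagen, each from 1 library per group, and the difference was not tested. Given as the telogen change minus the anagen change of log2(FPKM + 1), it was 0.20 for Tnfrsf1a, 0.63 for Nfkb1, 0.56 for Nfkbia and 0.79 for Nfkbie, all of which were higher in OTD than in YTD and lower in OAD than in YAD. The anagen change of Tnfrsf1a was close to 0 and turned in sign under 1 of 6 settings. The intervals of the anagen log2 ratio of Tnfrsf1a, Nfkbia and Nfkbie hold 0, so their opposite direction is not secure. That of Nfkb1, -0.45 to -0.20, does not. Among the target genes the difference was 1.48 for Ccl2 and 1.86 for Cd83, with the same directions, and both had an OAD value under the floor of 3 fragments. The anagen interval of Ccl2, -3.59 to 1.46, holds 0. The difference was -0.77 for Rnf11 and -0.76 for Sod2, which were lower in OTD and higher in OAD. The anagen change of Sod2 was only 0.06 and turned in sign under 3 of 6 settings, so its opposite direction is not secure.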

How the results depend on the processing

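Of 495 alternative values of single named genes, 31 turned in sign, none of them among the 27 changes past the threshold as deposited. 413 moved by no more than the counting error and 82 moved further. Of the 413, 75 came from the filter of 1 FPKM, which leaves the value of a gene it keeps unchanged. The filter is among the 6 settings counted per gene, and there it could only repeat the deposited value. Values without a bounded counting interval, such as that of Il6 in anagen, were also counted among the 413. The telogen direction held under every setting for 9 of the 10 members, the exception being Nfkb2, the anagen direction for 6, the young phase direction for 5 and the old phase direction for 6. Rescaled to TPM, the median change of the members was -0.23 in anagen, 0.58 between the phases in young mice and 0.086 in old mice. Rescaled without mitochondrial genes, it was -0.17 in anagen and -0.66 in old mice. With a fold of 1.5, 4 members were called in telogen, 3 between the phases in young mice and 5 in old mice, as were 4, 13 and 16 pathway genes and, in telogen, 12 target genes, where 16% of all genes were called in telogen, 52.3% in young mice and 50.9% in old mice. With a pseudocount of 0.1, 2 members were called in young mice, and 2, 13 and 12 pathway genes in telogen, young mice and old mice, where 12.4%, 48.1% and 46.9% of all genes were called. With TPM, 2 members were called in young mice, Nfkb1 and Nfkbiz, both upwards, while Tnfrsf1b was lost at -0.34. In old mice 1 member, Tnfaip6, and 13 pathway genes were called, where 40.7% of all genes were called in young and 36.3% in old mice. The cause was not tested. No paired analysis was possible because each group is 1 library. Of the 10 members depth limits Tnf most, at roughly 5.23 fragments in OTD. Of the target genes, Cxcl1, Cxcl2 and Il6 lay under the floor in YTD, OAD and YAD, and Ccl20 in every library. Ptgs2 lay under it in YTD, and Ccl2 and Cd83 in OAD.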

Other observations

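A few further pathway genes are given as values, chosen after their values were seen. Tnfaip2 stood at 11.4, 23.3, 5.14 and 4.04 FPKM in OTD, YTD, OAD and YAD, the lowest telogen change of the 44 pathway genes, at -0.97, and Traf3, an adaptor that restrains the non-canonical arm, at 3.72, 7.85, 6.96 and 8.85 FPKM, a telogen change of -0.91. Bcl3, a nuclear IκB protein, stood at 9.95, 6.24, 6.38 and 4.6 FPKM, higher in the old library of both phases. Tnfaip8l2 stood at 7.90, 5.12, 0.852 and 1.75 FPKM, and Tnfaip8 at 18.8, 15.6, 47.7 and 37.7 FPKM, the 1 pathway gene that rose past the threshold from telogen to anagen at both ages as deposited.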
